A study of Mus musculus and Homo sapiens with 30 samples.

Results

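The ADAMTS genes encode secreted metalloproteases with thrombospondin repeats that cut proteins of the extracellular matrix. Described here are Adamts1 and 8 related genes, Adamts4, Adamts5, Adamts7, Adamts9, Adamts10, Adamts12, Adamts14 and Adamts15, which are 9 of the 56980 mouse gene IDs in the deposited count table. Adamts1 was picked because its level was higher in one mouse mammary line and lower in the other after lean adipocyte secretome, so its lean values are given as a description with no test. The others were taken as its relatives.

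RNA was sequenced from 18 mouse libraries in 6 groups of 3. E0771 cells come from a mouse mammary tumour and NMuMG cells from mouse mammary gland epithelium, and the labels put both under breast cancer. Cells of each line grew for 36 h and then spent 16 h either in their growth medium alone (control) or in a mixture with 50% secretome, the medium conditioned by inguinal fat cells, of lean or obese origin. Both lines were kept in DMEM with 10% FBS, and that of NMuMG was supplemented with insulin (10 mcg/ml) and listed with 4.5 g/L glucose. Neither the genotype nor the species behind the lean and obese adipocytes is given in the labels, and since controls received no secretome, lean against obese was the comparison matched for the share of secretome. Nothing in the labels says that replicates came from separate cultures. The p-values therefore measure only the spread between these libraries, which may be technical.

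ADAMTS proteases are made as inactive precursors, are trimmed by furin-like convertases, are inhibited by TIMPs and are cleared by the receptor LRP1. Adamts1, Adamts4, Adamts5, Adamts9 and Adamts15 belong to the clade that cuts versican and aggrecan, the large proteoglycans that bind hyaluronan. Adamts7 and Adamts12 form a pair known for cutting cartilage oligomeric matrix protein, Adamts10 binds fibrillin microfibrils, and Adamts14 removes the amino-terminal propeptide of fibrillar procollagens. In mammary tumours ADAMTS1 is known for shedding EGF-receptor ligands and for releasing matrix fragments.

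The stretch of 250 bases before the RefSeq start site (build GRCm38.p6) was available for 4 of the 9 genes, and 3 are printed because these genes moved in different directions in E0771: Adamts1 was higher with lean secretome, and Adamts12 and Adamts14 were lower. Capitals mark matches to a TATA box (TATAAA), the core of a cyclic AMP response element (TGACG) or a GC box (GGGCGG), read on both strands, so that a GC box on the other strand appears as CCGCCC. The Adamts1 stretch lies at chr16:85803114-85803363 (minus strand), that of Adamts12 at chr15:11064523-11064772 (plus strand) and that of Adamts14 at chr10:61273420-61273669 (minus strand), and each is written 5′ to 3′ towards the start site.
Adamts1: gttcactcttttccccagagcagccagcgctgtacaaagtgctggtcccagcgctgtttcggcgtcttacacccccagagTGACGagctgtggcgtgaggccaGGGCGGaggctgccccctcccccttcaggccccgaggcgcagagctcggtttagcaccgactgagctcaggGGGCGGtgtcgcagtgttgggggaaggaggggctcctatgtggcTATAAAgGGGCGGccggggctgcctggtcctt
Adamts12: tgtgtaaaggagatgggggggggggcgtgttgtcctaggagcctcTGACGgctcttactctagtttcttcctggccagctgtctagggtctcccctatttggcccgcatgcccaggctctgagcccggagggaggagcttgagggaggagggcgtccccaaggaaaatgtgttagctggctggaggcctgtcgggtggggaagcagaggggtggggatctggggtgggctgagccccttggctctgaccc
Adamts14: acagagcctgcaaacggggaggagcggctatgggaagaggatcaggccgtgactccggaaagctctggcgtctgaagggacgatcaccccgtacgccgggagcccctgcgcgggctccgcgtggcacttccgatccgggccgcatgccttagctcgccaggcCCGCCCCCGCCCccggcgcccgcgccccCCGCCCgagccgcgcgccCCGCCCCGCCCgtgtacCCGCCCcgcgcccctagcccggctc
The Adamts1 stretch held a TATAAA match from 32 to 27 bases before the start, a TGACG match from 170 to 166 bases before it and 3 GC boxes. Adamts14 held 6 GC boxes, some of them overlapping, and no TATAAA. Adamts12 held 1 TGACG match and no GC box. The Adamts9 stretch (not printed) held 1 TGACG match and 1 GC box. Of 32851 promoters of the same length, 12.4% held TATAAA, 17.8% TGACG and 32.7% a GC box. The GC content was 65.6% for Adamts1, 63.2% for Adamts12 and 76.4% for Adamts14, beside a median of 52.4% over all promoters. None of the 4 stretches held an antioxidant response element core (TGACNNNGC, in 10.2% of promoters), an AP-1 site (TGANTCA, 6.75%), an E-box (CACGTG, 6.02%), a TEAD site (GGAATG, 12.6%) or a serum response element (CArG box, 1.47%). These matches describe letters in a window and are not measured binding sites.

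Total counts were between 22929035 and 31094119 per library. The labelled cell type was checked against markers: E0771 had 1 of 11 epithelial markers at 1 CPM (the count scaled to a common library size) or more, Krt8, with Epcam, Krt18 and Krt19 at 3 counts or fewer in every library, and 7 of 11 mesenchymal markers at that level. NMuMG had 6 or 7 of the 11 epithelial and 7 of the 11 mesenchymal markers at 1 CPM. Of the 10 adipocyte markers 2 or 3 reached 1 CPM in a group, and Adipoq and Lep had at most 3 counts in any library of either line. The summed adipocyte list was 82.3 to 85.8 CPM in E0771 with lean secretome and 47.3 to 50.2 CPM in control medium, and in NMuMG 102 to 108 CPM against 76.5 to 87.3 CPM. The summed mesenchymal list, which includes Vim and 3 collagen genes, was 2335 to 2558 CPM in E0771 with lean secretome against 3857 to 4048 CPM in control medium. In NMuMG it was 2188 to 2232 CPM against 2148 to 2250 CPM. Over the E0771 libraries of all media Vim was 1828 to 2976 CPM, Col1a1 184 to 697 CPM and Col3a1 36.6 to 134 CPM. The endothelial list summed to at most 5.4 CPM in any library, and the list of 7 macrophage markers to 180 to 214 CPM in NMuMG and 4.38 to 7 CPM in E0771. Of that list Cd14 made up 175 to 210 CPM in NMuMG, and Adgre1 and Itgam had at most 3 counts in any library. The part of these shifts in the results was not tested.

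The lines carried different sets of ADAMTS transcripts in control medium. Of the 5 members that passed the filter on low counts in each line, all differed between the lines by the edgeR test over 18 libraries, where 80.5% of the 16529 tested genes did (37.1% higher in E0771, 43.4% lower). Libraries of the lines did not overlap for any of these 5, as for 82.1% of all tested genes. Both shares cover all 16529 genes, which, unlike these members, were not limited to those that passed the filter in each line. Adamts4, Adamts10 and Adamts14 were higher in E0771, and Adamts1 and Adamts7 were lower. The test of Adamts1 reuses control libraries by which that gene was chosen. The other 4 members passed the filter in a single line, which fixes that they differ, so they are given by their values alone. The growth media of the lines differed, so line and medium cannot be told apart in these values. Nor can fewer cells that express a gene and less of its RNA per cell be told apart in such bulk RNA, here or in any result that follows.

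Adamts5 and Adamts9 had no count in any of the 9 E0771 libraries, which allows a level of up to 0.0124 CPM for each, from counting error alone. In NMuMG control medium they had 121 and 1133 counts over the 3 libraries. Taking 3 counts over the group as the floor for E0771, Adamts5 was at least 37.1-fold and Adamts9 at least 348-fold higher in NMuMG. Adamts15 had 0 to 2 counts in the E0771 libraries and 8.83 CPM ± 0.317 (SD, n = 3) in NMuMG control medium, a ratio of 220 (95% exact binomial interval 74.9 to 1068, counting error only). Adamts12 went the other way, at 3.44 CPM ± 0.305 in E0771 control medium against 0.183 CPM ± 0.0558 in NMuMG, where it had 1 to 6 counts per library. These 4 genes were thus carried almost entirely by a single line, 3 proteoglycan-cutting proteases by NMuMG and Adamts12 by E0771.

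Adamts1 in control medium was 13.5, 13.2 and 13.0 CPM in E0771 and 48.7, 47.0 and 47.1 CPM in NMuMG. No library of a line came near the other line, and the difference was -1.85 on the log2 scale (SE 0.159, edgeR adjusted p = 7.1e-08), a level 3.59-fold higher in NMuMG. The control libraries entered the choice of Adamts1, so this test is not independent of it. Adamts7 differed by the same amount (-1.85, SE 0.144, adjusted p = 4e-15). Adamts14 was 7.51-fold higher in E0771 (log2 difference 2.91, SE 0.102, adjusted p = 7.44e-27), Adamts4 was 3.18-fold higher there and Adamts10 was 1.67-fold higher.

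**Figure D1:**
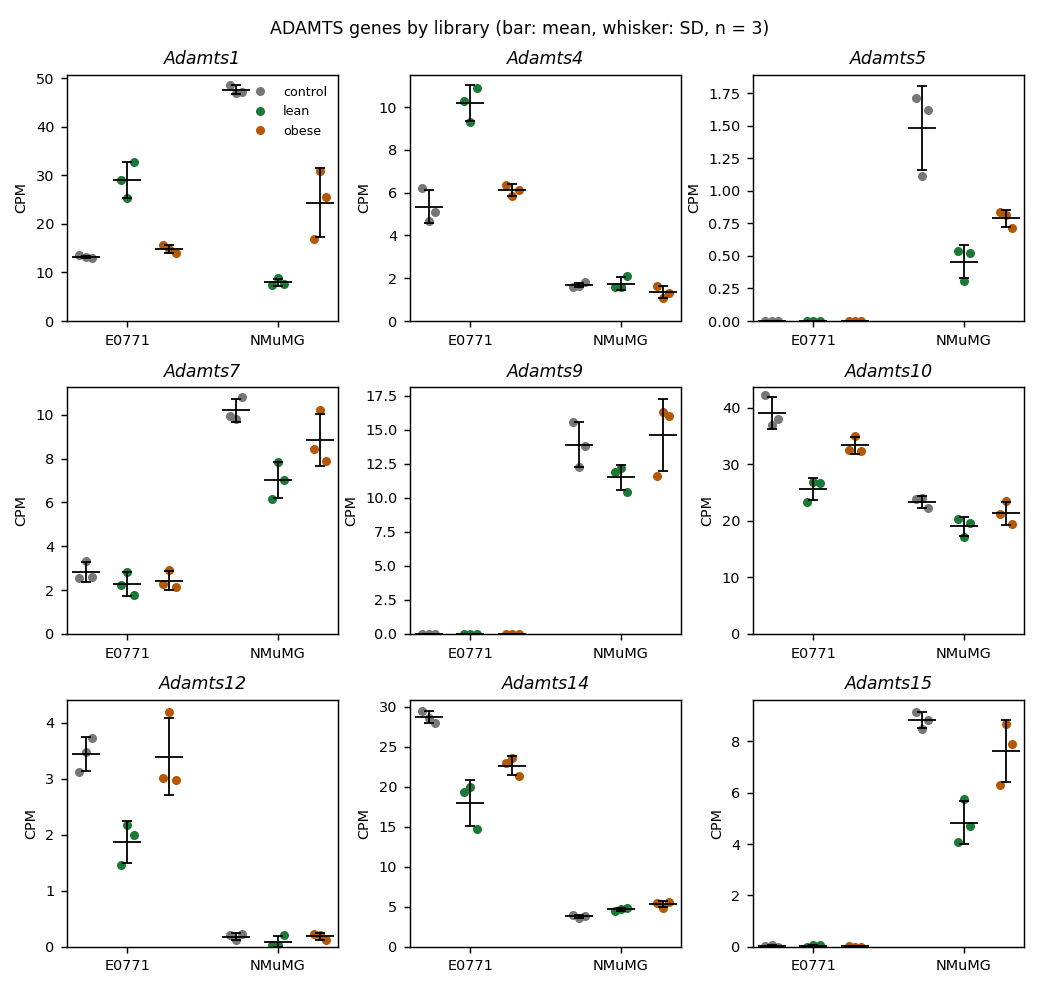
Level of each of the 9 ADAMTS genes in CPM (y axis, linear from 0) in every library of E0771 and NMuMG, coloured by medium, with the group mean (bar) and SD (whisker, n = 3). Adamts1 sits between 25.4 and 32.8 CPM with lean secretome in E0771, above the other media, and between 7.4 and 8.78 CPM in NMuMG, below them, and Adamts5 and Adamts9 sit at 0 in E0771.

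Levels of different genes were compared per kilobase of exon. In E0771 control medium Adamts14 led with 5.52 CPM per kb ± 0.153, before Adamts10 (4.73 ± 0.344), Adamts1 (2.5 ± 0.0482), Adamts4 (1.11 ± 0.162), Adamts7 (0.449 ± 0.0714) and Adamts12 (0.315 ± 0.0279). No neighbours in that order overlapped between libraries. In NMuMG control medium Adamts1 led with 8.98 CPM per kb ± 0.176, followed by Adamts10 (2.83 ± 0.125) and Adamts7 (1.62 ± 0.0859). Adamts9 (0.925 ± 0.111) and Adamts15 (0.852 ± 0.0306) came next and overlapped, and Adamts14 (0.732 ± 0.04), Adamts4 (0.349 ± 0.0233), Adamts5 (0.137 ± 0.0299) and Adamts12 (0.0168 ± 0.00511) closed the order.

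With lean secretome the order was different in both lines, which is a description, since the choice of Adamts1 fixes part of it. In E0771 Adamts1 stood at the top with 5.49 CPM per kb ± 0.691, from 17.1% to 37.3% of the summed level of the 9 genes, while Adamts14 (3.46 ± 0.553) and Adamts10 (3.1 ± 0.24) overlapped behind it. The sum itself was 14.6 CPM per kb ± 0.606 in control and 14.7 ± 0.256 in lean medium. In NMuMG Adamts1 made up 54.6% of the sum in control medium and 20% with lean secretome, Adamts10 led at 2.31 CPM per kb ± 0.2, and the sum was 7.47 ± 0.186 with lean secretome against 16.4 ± 0.363 in control medium. With obese secretome the NMuMG sum was 11.7 ± 1.78, of which Adamts1 held 38.8%, and the E0771 sum was 13.2 ± 0.55, led by Adamts14 and Adamts10, which overlapped.

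**Figure D2:**
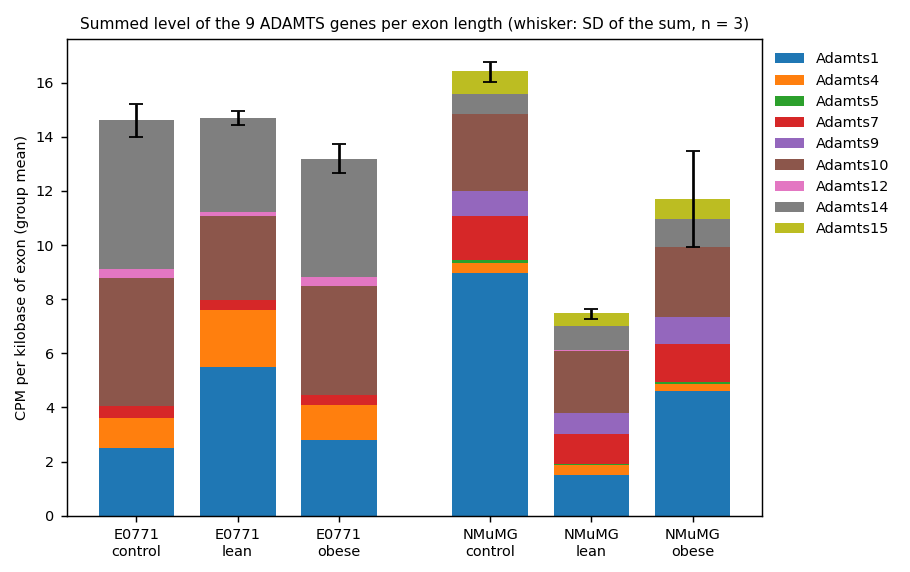
Mean level per kilobase of exon (y axis, CPM per kb) of the 9 genes stacked for each line and medium, with the SD of the sum over 3 libraries as whisker. The E0771 stacks stay between 13.2 and 14.7 while the share of Adamts1 grows with lean secretome, and the NMuMG stack is 7.47 with lean secretome against 16.4 in control medium.

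Adamts1 stood at 29.1, 25.4 and 32.8 CPM in the 3 E0771 lean libraries, each above every control library (13.0 to 13.5) and every obese library (15.7, 14.8 and 14.1). The log2 difference of lean over control was 1.11, a level 2.16-fold higher, and that of lean over obese was 0.95. In NMuMG the lean libraries held 7.4, 8.78 and 7.66 CPM and the obese libraries 16.8, 30.9 and 25.5 CPM, so the lean libraries were below all others and the obese libraries lay between lean and control without overlap. The lean effect in NMuMG was a 5.99-fold lower level than in control medium and 3.07-fold lower than with obese secretome. The effects of the lines differed by 3.72 on the log2 scale for lean over control and by 2.59 for lean over obese.

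Adamts1 was chosen by its lean changes against control and obese medium, so the libraries of all 3 media took part in the choice. The obese-over-control tests of Adamts1 are therefore not independent of its choice. In E0771 the difference was 0.16 (SE 0.0896, 95% interval -0.03 to 0.34, edgeR adjusted p = 0.426), although no obese library overlapped the controls. In NMuMG Adamts1 was 1.95-fold lower with obese secretome than in control medium (log2 difference -0.96, SE 0.19, adjusted p = 0.0436). That call was lost in 10 of 14 alternatives: without control replicate 1, 2 or 3 (adjusted p = 0.152, 0.128 and 0.125), without lean replicate 1, 2 or 3 (0.08, 0.0768 and 0.0742), without obese replicate 3 (0.131), with no filter on low counts (0.0699), with the replicate block (0.0727) and with only the compared groups in the fit (0.119). Obese replicate 1 was the lowest of its group at 16.8 CPM, and the difference lay between -1.17 and -0.76 when single libraries were left out. The lines' obese effects differed by 1.13 (SE 0.231, adjusted p = 0.0268), and this call was lost in 11 of 23 alternatives with adjusted p between 0.0502 and 0.0768. They were the fit of the compared groups alone (0.0678) and the fits without any 1 of the E0771 control, E0771 obese or NMuMG control replicates or without NMuMG obese replicate 3 (0.0506).

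Among the other 8 genes, lean secretome moved most that could be tested. In E0771 4 of 5 tested genes passed at an adjusted p under 0.05 for lean over control (edgeR), 1 higher and 3 lower, and 56.3% of all tested genes passed there (27.3% higher, 29% lower). In NMuMG 4 of 7 passed, all lower, where 38.2% of all tested genes passed (19.1% lower). With so large a part of all genes past the threshold, these counts do not set the members apart. The median log2 change of the tested genes without Adamts1 was -0.64 in E0771 and -0.29 in NMuMG, beside -0.01 and -0.00 over all tested genes. Against obese secretome, 4 of 5 passed in E0771 (1 higher, 3 lower; 52.7% of all tested genes, 25.8% higher and 26.9% lower) and 3 of 7 in NMuMG, all lower (35% of all, 17.4% lower). Libraries of lean and control medium did not overlap for 4 of 5 of these genes in E0771 (61.4% of all tested genes) and 6 of 7 in NMuMG (47.8%). Those of lean and obese medium did not overlap for 4 of 5 in E0771 (60.5%) and 4 of 7 in NMuMG (45.3%).

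Adamts4, an aggrecanase, rose with lean secretome in E0771. It was 10.3, 9.29 and 10.9 CPM with lean secretome, 6.21, 4.7 and 5.11 CPM in control medium and 6.38, 5.85 and 6.12 CPM with obese secretome. Every lean library was above every other, and control and obese libraries overlapped. The log2 difference was 0.90 for lean over control (SE 0.115, edgeR adjusted p = 3.72e-07) and 0.72 for lean over obese (SE 0.113, adjusted p = 8.23e-06). In NMuMG the gene was low, between 1.08 and 2.1 CPM in all 9 libraries, and lean over control was 0.05 (95% interval -0.40 to 0.51, adjusted p = 0.876). The difference between the lines in the lean effect was 0.87 (SE 0.229, adjusted p = 0.00223) and held in 23 of 23 alternatives. Reads from the opposite strand would count towards Adamts4 if strand was not used in counting, and their part in these values was not tested.

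Adamts5, the other main aggrecanase and the chromosomal neighbour of Adamts1, fell in NMuMG. It was 1.71, 1.11 and 1.62 CPM in control medium, 0.536, 0.308 and 0.524 CPM with lean secretome, and 0.836, 0.817 and 0.711 CPM with obese secretome. Libraries of the 3 media did not overlap at these low levels of 8 to 49 counts. Lean over control was -1.69 (SE 0.316, edgeR adjusted p = 4.82e-05). Obese over control was -0.92 and did not pass (adjusted p = 0.062; 0.0459 with only the compared groups in the fit), nor did lean over obese at -0.77 (adjusted p = 0.0905). The neighbour on the other side of Adamts1, Cyyr1, had 0 to 4 counts per library and could not be tested.

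Adamts15 and Adamts9, also proteoglycan-cutting, could be tested across media in NMuMG alone. Adamts15 was 9.13, 8.5 and 8.85 CPM in control medium and 4.07, 5.74 and 4.72 CPM with lean secretome. The obese libraries, at 6.29, 8.69 and 7.9 CPM, were above the lean libraries and overlapped the controls. The gene fell by 0.87 on the log2 scale for lean over control (SE 0.125, edgeR adjusted p = 7.52e-07) and by 0.66 for lean over obese (SE 0.129, adjusted p = 0.000121).

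Adamts9 moved less. It was 15.6, 12.3 and 13.8 CPM in control medium, 11.9, 12.2 and 10.4 CPM with lean secretome and 11.6, 16.3 and 16.0 CPM with obese secretome. The lean libraries were all below the controls, the nearest at 12.2 against 12.3 CPM, and overlapped the obese ones. Lean over control was -0.28 (edgeR adjusted p = 0.0725) and passed without control replicate 2 (0.0321), without obese replicate 1 (0.0116), with no filter (0.00934) and with only the compared groups (0.0122). Lean over obese was -0.34 (SE 0.118, adjusted p = 0.0294), and that call was lost in 6 of 14 alternatives: without control replicate 3 (0.0597), lean replicate 1 (0.0712) or 3 (0.124), obese replicate 2 (0.124) or 3 (0.141), and with the replicate block (0.0838).

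**Figure D3:**
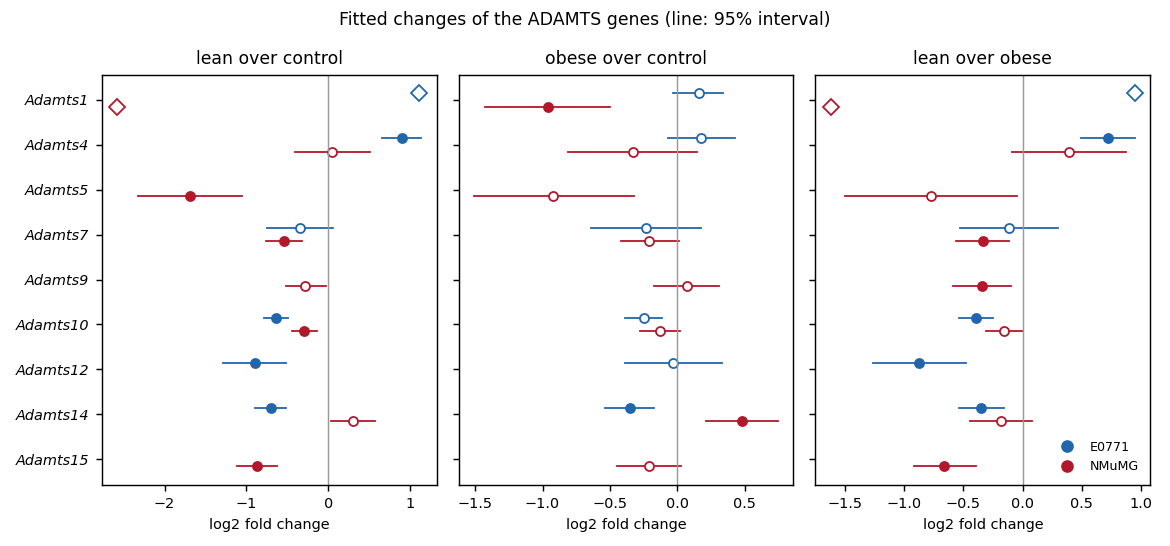
Log2 fold changes (x axis) of the 9 genes for lean over control, obese over control and lean over obese, E0771 in blue and NMuMG in red. Filled circles passed an adjusted p under 0.05, open circles did not, lines are 95% intervals, and open diamonds are Adamts1 in the comparisons that chose it, drawn with no interval. Missing marks are genes not tested in that line; Adamts4 lies right of 0 in E0771 and Adamts5, Adamts7, Adamts10 and Adamts15 lie left of 0 in NMuMG for lean over control.

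Adamts7 and Adamts12 share a mucin-like domain. Adamts7 was 9.96, 9.81 and 10.8 CPM in NMuMG control medium and 6.18, 7.85 and 7.02 CPM with lean secretome, with no overlap. It fell by 0.54 (SE 0.107, edgeR adjusted p = 0.00011) for lean over control. Lean over obese was -0.33 (SE 0.111, adjusted p = 0.0185), lost without lean replicate 1 (0.127), without obese replicate 2 (0.18) and under DESeq2 (0.0583). In E0771, at 1.77 to 3.34 CPM, the lean effect was -0.34 (95% interval -0.75 to 0.06, adjusted p = 0.144; 0.0435 without lean replicate 2), and it was not shown to differ between the lines (0.22, adjusted p = 0.495). Adamts7 exons overlap those of Tbc1d2b on the opposite strand, which changed by 0.11 with lean secretome in NMuMG (adjusted p = 0.16).

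Adamts12 was 3.12, 3.48 and 3.73 CPM in E0771 control medium, 1.46, 2.17 and 1.99 CPM with lean secretome and 3.02, 4.19 and 2.97 CPM with obese secretome. The lean libraries were below all the others, and the obese libraries straddled the controls. Its log2 difference was -0.90 for lean over control (SE 0.189, edgeR adjusted p = 0.000255) and -0.87 for lean over obese (SE 0.188, adjusted p = 0.000407), and -0.03 for obese over control (adjusted p = 0.963).

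Adamts10, the fibrillin-binding member, fell in both lines. In E0771 it was 42.3, 36.9 and 38.0 CPM in control medium, 23.3, 26.8 and 26.6 CPM with lean secretome and 32.5, 35.0 and 32.3 CPM with obese secretome, with the obese libraries between the other groups. In NMuMG the control libraries were 23.8, 24.1 and 22.2 CPM and the lean libraries 20.3, 17.2 and 19.6 CPM, without overlap. Lean over control was -0.64 in E0771 (SE 0.0689, edgeR adjusted p = 2.74e-08) and -0.29 in NMuMG (SE 0.0741, adjusted p = 0.00178). The fall was larger in E0771 (difference -0.32, SE 0.104, adjusted p = 0.0146), a call lost without E0771 control replicate 1 (0.0655), E0771 lean replicate 1 (0.0636) or NMuMG lean replicate 1 (0.0655). Obese over control was -0.25 in E0771 (SE 0.0679, adjusted p = 0.0519) and -0.13 in NMuMG (adjusted p = 0.379), and the E0771 value passed without lean replicate 1 (0.0412) or 3 (0.0229), with no filter (0.0136) and with only the compared groups (0.0257).

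Adamts14, the procollagen-processing member, passed in opposite directions in the lines with obese secretome, lower in E0771 and higher in NMuMG. In E0771 it was 29.5, 28.6 and 27.9 CPM in control medium, 19.3, 20.0 and 14.7 CPM with lean secretome and 23.0, 23.6 and 21.3 CPM with obese secretome. All lean libraries lay below all obese libraries, and these below all controls. In NMuMG it was 3.97, 3.57 and 3.87 CPM in control medium, 4.5, 4.74 and 4.88 CPM with lean secretome and 5.45, 4.9 and 5.61 CPM with obese secretome, with the controls lowest and the obese libraries highest.

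In E0771 Adamts14 changed by -0.70 for lean over control (SE 0.0884, edgeR adjusted p = 6.13e-07), by -0.35 for lean over obese (SE 0.0901, adjusted p = 0.00239) and by -0.35 for obese over control (SE 0.0871, adjusted p = 0.0319). In NMuMG it changed by 0.48 for obese over control (SE 0.132, adjusted p = 0.0246), and lean over control was 0.30 (95% interval 0.03 to 0.57, adjusted p = 0.0686). The difference between the lines was -0.98 for the lean effect (SE 0.154, adjusted p = 2.12e-06) and -0.82 for the obese effect (SE 0.153, adjusted p = 0.00169), and both passed in 23 of 23 alternatives. The obese calls within a line were less steady: that in E0771 was lost without control replicate 1, 2 or 3 (0.208, 0.118 and 0.0505) or obese replicate 1 or 3 (0.0783 and 0.191), and that in NMuMG without control replicate 1, 2 or 3 (0.0619, 0.108 and 0.063), obese replicate 1 or 3 (0.0774 and 0.113) and under DESeq2 (0.0774).

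With obese secretome, 1 of 6 tested members passed in E0771 (Adamts14, lower; 2.61% of all tested genes, 1.4% lower), and 2 of 8 passed in NMuMG (Adamts1 lower and Adamts14 higher; 5.01% of all, 2.66% lower and 2.34% higher). Obese and control libraries did not overlap for 3 of 6 members in E0771 (21.7% of all tested genes) and 3 of 8 in NMuMG (21.3%). Adamts1 was included in these counts, though it was chosen with the same control and obese libraries. Apart from it, Adamts14 was the only member that passed in either line. The count of passing members was 0 to 2 in both lines when single libraries were left out. For the difference between the lines, Adamts4, Adamts10 and Adamts14 of the 4 members testable in both lines passed for lean over control (34.5% of 16529 genes, 19.4% higher and 15.1% lower in E0771), and Adamts1 and Adamts14 of 5 for obese over control (1.69%, 1.06% higher and 0.623% lower). The test of Adamts1 among these is not independent of its choice. The shares of all genes are not limited to genes testable in both lines. For lean over obese none of 4 passed (34.2% of all), with 1 at an unadjusted p under 0.05 (Adamts10) and 0 by DESeq2, and Adamts10 passed without NMuMG lean replicate 2 (adjusted p = 0.042) or NMuMG obese replicate 2 (0.041).

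Within a line the members did not move as a block. Over the 9 E0771 libraries Pearson's r of log2 CPM with Adamts1 was 0.971 for Adamts4, -0.909 for Adamts10, -0.893 for Adamts12, -0.887 for Adamts14 and -0.528 for Adamts7. Over the 9 NMuMG libraries it was 0.956 for Adamts15, 0.906 for Adamts7, 0.885 for Adamts5, 0.786 for Adamts10, 0.667 for Adamts9, -0.273 for Adamts4 and -0.51 for Adamts14. These values describe 3 media of 3 libraries each, which share the lean shift by which Adamts1 was chosen.

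Across the 18 libraries, after each line's mean was subtracted, 8923 genes with at least 4 CPM in each line were ranked by their r with Adamts1. The 5 most alike were Acta2, smooth muscle actin (0.972), Rhou, an atypical small GTPase (0.957), Twsg1, a secreted BMP-binding protein (0.948), Tgfbr1, a TGF-beta receptor (0.947), and Tacc1, a coiled-coil protein (0.942). The 5 most opposite were Srgap3, a GTPase-activating protein (-0.971), Ccnd1, a cyclin (-0.964), Mbnl1, a splicing regulator (-0.956), Mgea5, the enzyme that removes O-GlcNAc (-0.949), and Rap2b, a small GTPase (-0.947). Acta2 was 17.9, 28.7 and 16.8 CPM in E0771 control, lean and obese medium and 18.8, 3.79 and 11.8 CPM in NMuMG. Its log2 change with lean secretome was -2.31 in NMuMG, close in size to the -2.58 of Adamts1. In E0771 it was 0.65, smaller than the 1.11 of Adamts1. For Rhou, Twsg1, Tgfbr1 and Tacc1 the E0771 change with lean secretome was between 0.12 and 0.20, smaller than that of Adamts1. Tacc1 changed there by 0.13 with lean and by 0.10 with obese secretome. In the same order, their r with Adamts1 was 0.899, 0.914, 0.745 and 0.727 within E0771. Within NMuMG it was 0.97, 0.976, 0.986 and 0.99. Srgap3 went the other way from Adamts1 with lean secretome, at -0.62 in E0771 and 1.33 in NMuMG. Of these 10 genes, 6 were also chosen by Spearman's rank correlation and 1 when the line means were not subtracted. The ranking takes in the lean shift by which Adamts1 was chosen.

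**Figure D4:**
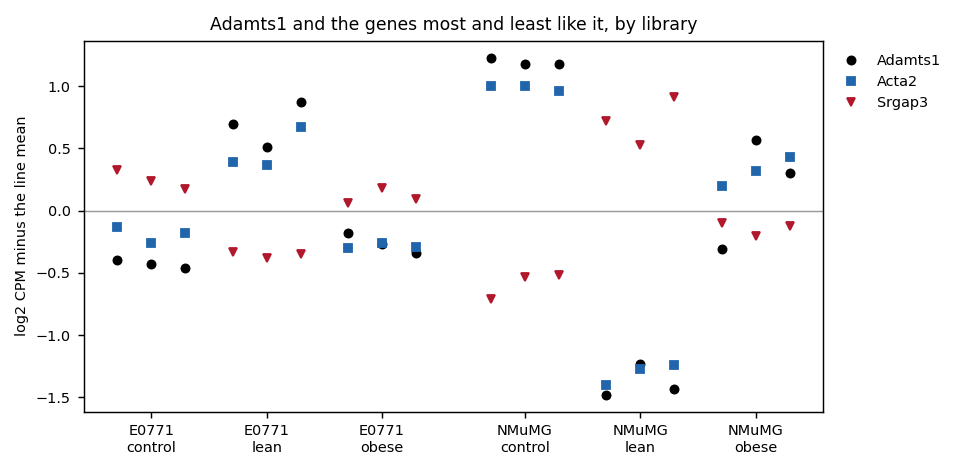
Log2 CPM minus the line mean (y axis) of Adamts1, Acta2 and Srgap3 in each of the 18 libraries, grouped by line and medium. Adamts1 and Acta2 are high together in the E0771 lean libraries and low together in the NMuMG lean libraries, down to -1.48 and -1.40, and Srgap3 takes the other side.

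Genes that ADAMTS proteases act on were next described by a list of 22 substrates. In E0771 9 of 10 tested substrates passed for lean over control (edgeR), 3 higher and 6 lower, where 56.3% of all tested genes passed (27.3% higher, 29% lower), with a median of -0.72 beside -0.01 for all genes. Areg, the EGF-receptor ligand amphiregulin, rose by 2.32 (SE 0.202, adjusted p = 7.92e-10), from 0.798, 1.08 and 0.837 CPM to 4.99, 5.19 and 3.76 CPM. Hbegf, another EGF-receptor ligand, rose by 1.05, and Sdc4, a cell-surface proteoglycan, by 0.18. The genes that fell were mostly matrix: Col1a1 (-1.75, SE 0.148, adjusted p = 6.27e-05), Col3a1 (-1.53), Vcan (-1.44, SE 0.137, adjusted p = 8.28e-05), Bgn (-1.38), Thbs2 (-0.66) and Nid1 (-0.43). Vcan, which encodes versican, was 141, 151 and 127 CPM in control medium and 57.7, 57.2 and 42.7 CPM with lean secretome, without overlap. Col1a1 and Col3a1 are also in the mesenchymal marker list whose sum was lower in these libraries, a list in which Vim had the highest level.

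In NMuMG 8 of 11 tested substrates passed for lean over control, 4 in each direction, where 38.2% of all tested genes passed (median 0.08 beside -0.00). Thbs1, the matricellular thrombospondin, rose by 1.28 (SE 0.0681, edgeR adjusted p = 6.19e-08), Areg by 1.01 (SE 0.0514, adjusted p = 1.77e-16), Sema3c, a secreted guidance protein, by 0.59 and Hbegf by 0.27. Col1a1 fell by 0.91, Vcan by 0.75 (SE 0.0712, adjusted p = 1.31e-10), Fn1, fibronectin, by 0.69 and Acan, aggrecan, by 0.44. Vcan was 28.2, 28.4 and 34.0 CPM in control medium and 18.0, 18.0 and 17.7 CPM with lean secretome, so versican was lower in both lines while Adamts1 was higher in E0771 and lower in NMuMG. The fall of Vcan was larger in E0771 (difference -0.66, SE 0.176, adjusted p = 0.00987), and the rises of Areg (1.33, SE 0.189, adjusted p = 3.02e-07) and Hbegf (0.80, SE 0.0985, adjusted p = 1.61e-08) were larger in E0771 too. Some substrates were counted in 1 line: Fn1 and Sema3c had 0 CPM in the E0771 control libraries and 1597 and 188 CPM in NMuMG.

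Against obese secretome, 9 of 10 substrates passed in E0771 (52.7% of all tested genes) and 9 of 11 in NMuMG (35%) for lean over obese. Areg rose by 1.62 in E0771 and 0.55 in NMuMG, and Vcan fell by 1.13 and 0.57. Larger falls than that of Vcan in E0771 were those of Col3a1 (-1.47), Bgn (-1.38) and Col1a1 (-1.36). In NMuMG Thbs1 rose by 1.10 and Acan changed by -0.68. For obese over control, Nid1 fell in E0771 (-0.28, SE 0.0558, edgeR adjusted p = 0.00728) as 1 of 10 (2.61% of all tested genes), a count of 0 without control replicate 1 or 2 or obese replicate 3 and 2 without lean replicate 3. In NMuMG 4 of 11 rose with obese secretome (2.34% of all tested genes rose), Areg (0.47), Acan (0.24), Sema3c (0.18) and Hbegf (0.15), a count of 1 without obese replicate 1 and 2 without control replicate 1 or 2 or obese replicate 3. Acan was thus higher with obese and lower with lean secretome than in control medium, comparisons that share their controls.

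**Figure D5:**
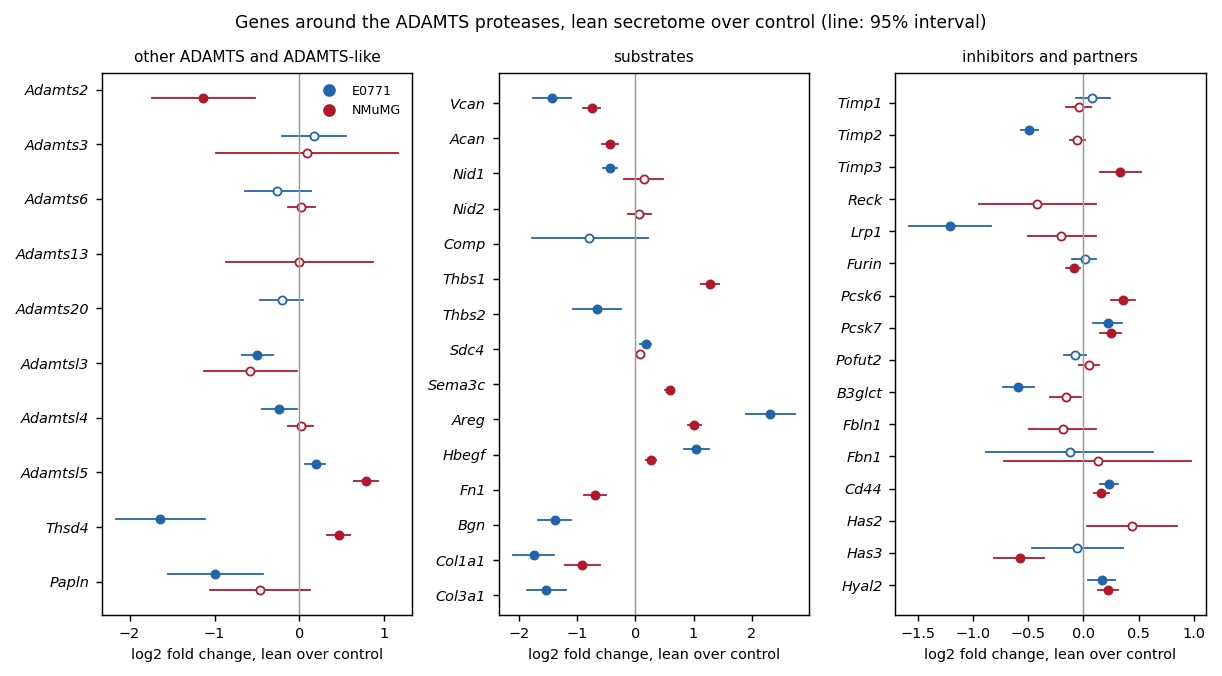
Log2 fold change of lean over control (x axis) for tested genes of 3 lists in E0771 (blue) and NMuMG (red), with 95% intervals; filled circles passed an adjusted p under 0.05. Areg and Hbegf lie right of 0 and Vcan and Col1a1 left of 0 in both lines, and Thsd4 lies at -1.64 in E0771 and 0.46 in NMuMG.

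The other ADAMTS and ADAMTS-like genes made up a list of 17. In E0771 5 of 8 tested passed for lean over control, 1 higher and 4 lower (median -0.25; 56.3% of all tested genes passed), and in NMuMG 3 of 9, 2 higher and 1 lower (median 0.02; 38.2% of all), so both counts lay near the background. Thsd4, an ADAMTS-like protein that binds fibrillin, fell by 1.64 in E0771 (SE 0.254, edgeR adjusted p = 5.91e-06), where it was low, from 1.75 to 0.573 CPM. It rose by 0.46 in NMuMG (SE 0.066, adjusted p = 8.31e-07), from 21.7 to 29.7 CPM. The difference was -2.07 (SE 0.224, adjusted p = 1.01e-09), opposite in sign to that of Adamts1. In E0771 Papln (-0.99), Adamtsl3 (-0.50) and Adamtsl4 (-0.24) fell as well, Papln at the low level of 1.68 CPM in control medium and 0.867 CPM with lean secretome. Adamtsl5 rose in both lines, by 0.19 in E0771 and 0.78 in NMuMG, less in E0771 (difference -0.57, SE 0.0863, adjusted p = 1.18e-06). Adamts2, a procollagen protease like Adamts14, fell by 1.13 in NMuMG (SE 0.298, adjusted p = 0.00264), also at a low level, from 1.62 to 0.746 CPM. Adamts20 was 6.96 CPM in E0771 control medium and 0 in NMuMG. For lean over obese 2 of 8 passed in E0771, 1 in each direction (52.7% of all tested genes passed). In NMuMG 4 of 9 passed, 3 higher and 1 lower (35% of all). For obese over control none of 8 passed in E0771 (edgeR, with 2 at an unadjusted p under 0.05 and 0 by DESeq2) and none of 9 in NMuMG (4 and 0). Of all tested genes only 2.61% and 5.01% passed there, so these counts do not set the list apart.

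The list of 22 inhibitors, convertases, modifying enzymes and matrix partners held 11 genes tested in E0771 and 16 in NMuMG. For lean over control 6 passed in E0771, 3 in each direction (median -0.06), and 7 in NMuMG, 5 higher and 2 lower (median 0.00), again near the 56.3% and 38.2% of all tested genes. Lrp1, the receptor that takes up ADAMTS proteases, fell by 1.21 in E0771 (SE 0.153, edgeR adjusted p = 0.000542), B3glct, which extends the sugar on thrombospondin repeats, by 0.59, and Timp2 by 0.49. Cd44, the hyaluronan receptor, rose by 0.23 in E0771. In NMuMG Has3, a hyaluronan synthase, fell by 0.58, and Pcsk6, a convertase (0.36), Timp3, the main TIMP against aggrecanases (0.33, SE 0.0791, adjusted p = 0.0103), and Pcsk7 (0.25) rose. The lean effect differed between the lines for Lrp1 (-0.98, SE 0.198, adjusted p = 0.00157), Timp2 (-0.41), B3glct (-0.40) and Has3 (0.55, adjusted p = 0.0376). Timp3 had 0 CPM in the E0771 control libraries against 128 CPM in NMuMG. For lean over obese 5 of 11 passed in E0771, 2 higher and 3 lower (52.7% of all tested genes passed). In NMuMG 7 of 16 passed, 5 higher and 2 lower (35% of all). For obese over control none of 11 passed in E0771 (1 at an unadjusted p under 0.05, 0 by DESeq2) and none of 16 in NMuMG by edgeR (4 unadjusted, 1 by DESeq2). With 2.61% and 5.01% of all tested genes past the threshold, these counts too lay near the background.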

How the data were processed

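The authors deposited raw counts per Ensembl gene ID for the mouse libraries, which were checked to be whole numbers with unequal totals. The submitters' processing notes name cutadapt 1.16, STAR 2.7.9a, featureCounts 1.6.3 and GRCm39 without roles. The annotation release and the strand setting of the counting are not given in the sources used here; the kit was directional, per the labels' protocols. Symbols and exon lengths came from GENCODE annotation on GRCm38 (52073 of 56980 IDs matched, 99.68% of counts), and its loci were used to find neighbouring and overlapping genes, with no coordinates printed from it. The human table was not used here.

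Each line was fitted alone over 9 libraries, and differences between lines over all 18, in edgeR 4.0.16 (R 4.3.3) with filterByExpr, TMM factors and robust quasi-likelihood F tests. P-values were adjusted by Benjamini-Hochberg over all tested genes (13813 in E0771, 15014 in NMuMG, 16529 in both), and a gene passed under 0.05. Of the 9 members, 6 passed the filter on low counts in E0771 and 8 in NMuMG. CPM used TMM-scaled totals over both lines, and log2 CPM a prior count of 2. Members were tested for a difference between lines only where both lines tested them. The shares of all tested genes beside those tests were not limited in this way. Intervals of counts cover counting error only, since reads carried no molecular identifiers, and a sum of 0 was given a floor of 3 counts. The scripts were tested on simulated counts. Counts of replicates differed by more than counting noise (chi-square over its degrees of freedom 2.3 to 8.44), so none was a repeat deposit.

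Named were all 9 members and the 5 genes most and least like Adamts1. Of each list, up to 4 called genes with the largest change were named for lean over control and obese over control within each line. For the other comparisons only some of these were named, and some further list members were given by value. The members and lists were chosen with earlier results of these data known. Alternatives were DESeq2 1.42.0, DESeq2-type size factors, no filter, the replicate block, only the compared groups, and each replicate left out.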

Additional observations from a re-analysis of the deposited data

Results flagged for a closer look

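Values of 4 genes stood out between the lines. For Adamts1 every E0771 lean library was above, and every NMuMG lean library below, all libraries of the same line in control or obese medium. The effects differed by 3.72 on the log2 scale for lean over control and by 2.59 for lean over obese, and this difference was not tested, because Adamts1 was chosen by it. With obese secretome over control the difference between the lines was -0.82 for Adamts14, past the threshold of the edgeR test of the difference itself, and 1.13 for Adamts1. The test for Adamts1 passed as well, but it reuses control and obese libraries by which the gene was chosen. That call was lost in 11 of 23 alternatives, with edgeR adjusted p up to 0.0768. With lean secretome over control that test gave 0.87 for Adamts4, -0.32 for Adamts10 and -0.98 for Adamts14. In each case the value is the effect in E0771 minus that in NMuMG.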

How the results depend on the processing

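With single libraries left out, the lean-over-control log2 change of Adamts1 ranged from 1.02 to 1.20 in E0771 and from -2.66 to -2.53 in NMuMG. Changes of sign were seen only in members that had not passed. In the same fits Adamts12 for E0771 obese over control lay between -0.20 and 0.06, Adamts7 for E0771 lean over obese between -0.30 and 0.05, Adamts4 for NMuMG lean over control between -0.09 and 0.13, Adamts9 for NMuMG obese over control between -0.02 and 0.21, and Adamts7 for the line difference in obese over control between -0.16 and 0.12 (0.00 with the replicate block).

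For E0771 obese over control the count of called members was 2 in place of 1 with no filter and with only the compared groups. For NMuMG obese over control it was 1 in place of 2 with no filter, the replicate block or DESeq2, and called partners were 1 in place of 0 with no filter, the replicate block, DESeq2 or only the compared groups. For the line difference in obese over control the count of called members was 1 in place of 2 with only the compared groups. Member counts for obese over control include Adamts1, whose test is not independent of its choice.

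With single libraries left out, counts ran as follows. E0771 obese over control gave 0 to 2 members and 0 to 2 substrates. E0771 lean over obese gave 2 to 4 other family genes (4 without lean replicate 1) and 5 to 8 partners (8 without obese replicate 1). NMuMG obese over control gave 0 to 2 members, 1 to 5 substrates and 0 to 1 partners. NMuMG lean over obese gave 1 to 3 members, 1 without lean replicate 1 or obese replicate 2. The line difference in obese over control gave 1 to 2 members and 0 to 1 substrates, and that in lean over obese 0 to 1 members and 2 to 5 substrates (2 without NMuMG obese replicate 3). The cause of these shifts was not tested.

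Same-numbered replicates of different media deviated with correlations from -0.144 to 0.135 in E0771 and from -0.0893 to 0.0276 in NMuMG, and 2 of 9 and 0 of 9 libraries were closest to their own number. Little shared deviation by number was thus seen. This cannot show whether equal numbers marked a shared culture or day, which the labels do not say. The block therefore stood as an alternative. Adamts5, Adamts9 and Adamts15 in E0771 and Adamts12 in NMuMG had too few counts for a test across media.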
